A study of Homo sapiens with 2 samples.

Results

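The 36 genes described here encode the chaperones, folding enzymes and stress sensors of the endoplasmic reticulum (ER) and the machinery that degrades its misfolded proteins. They were chosen by name as a set of ER genes, at a time when earlier results of these data were known. All 36 were found among the 50868 genes of the table. RNA-seq was performed on MOLM-13, a human AML cell line, with 1 library from cells labelled Vector (OE-Control) and 1 library from cells labelled as over-expressing UNC5B. According to the study's methods, UNC5B was delivered in a lentiviral plasmid with a CMV promoter, a FLAG tag, mCherry and puromycin resistance, and the infected cells were selected with puromycin. Both groups therefore share the MOLM-13 background and its culture medium, and the insert of the control plasmid is not given in the sources used here. All 36 genes had at least 10 reads over both libraries, the minimum for the 15384 genes that were tested. The question was whether the ATF6 and IRE1 arms of the ER stress response differed in RNA level between the 2 libraries.

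The unfolded protein response is the programme by which cells match the folding capacity of the ER to the load of secreted and membrane proteins. It has an ATF6 arm, in which a membrane-bound factor is cut free in the Golgi by the proteases S1P and S2P and then induces chaperone genes. It has an IRE1 arm, in which IRE1 (gene ERN1) splices the XBP1 mRNA so that it encodes an active factor for folding, translocation and degradation genes. In the PERK arm, phosphorylation of eIF2alpha lowers general translation and favours ATF4, a factor that other stresses such as amino acid shortage also raise. Gene-level reads count spliced and unspliced XBP1 RNA together and do not see the cutting of ATF6, so the activity of these sensors was not measured here.

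Vector held 13715566 counted reads, fewer than the 15637137 of the library labelled OE-UNC5B. UNC5B itself (chromosome 10 of GRCh38, 71212570 to 71302864) had 0 reads in both libraries, and a floor of 3 reads allows up to 0.219 CPM (reads scaled to 1000000 counted reads) in Vector and 0.192 CPM in the other. Whether reads of the construct would be counted under this gene is not given in the sources used here, so this limit holds for reads assigned to UNC5B, and all directions below rest on the labels. All 10 markers of a myeloid leukaemia line had reads in both libraries. Of these, LYZ, the gene of lysozyme, had 51742 and 23700 reads, and MPO, the gene of myeloperoxidase, had 3363 and 1553 reads. Their log2 fold changes were -1.36 and -1.35, whereas 7 of the 10 markers had values above 0 and the median of the 10 was 0.30. PTPRC, the gene of CD45, had 1592 and 3102 reads and a value of 0.73, and MEIS1, a partner of HOX factors, had 247 and 542 reads and a value of 0.90. Of 5 markers of HEK-293T cells, the packaging line of the study's methods, 4 had 0 reads in both libraries, with 5 and 2 reads in all. Of 6 endothelial markers, 5 were at 0 with 1 and 2 reads in all. Of 6 markers of fibroblasts, which the methods do not name, 2 were at 0, with 34 and 12 reads in all.

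A log2 fold change below is the library labelled OE-UNC5B over Vector, on reads scaled with TMM factors and with 0.5 reads added. The range in brackets is the 95% Clopper-Pearson interval from the reads. Since each group is 1 library, nothing was replicated, no p-value is given, and the intervals cover counting error only. Reads without molecular identifiers are not independent molecules. A gene is counted as higher or lower when its fold change is at least 1.5 (or 2) and its interval leaves out 0.

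The chaperones and disulfide enzymes of the ER lumen mostly had fewer scaled reads in the library labelled OE-UNC5B, whereas the sensors and the degradation genes were within 1.5-fold of Vector or higher. Of the 36 genes, 11 were at least 1.5-fold lower, beside 8.73% of all tested genes, and 3 were at least 1.5-fold higher, beside 9.14%. At 2-fold, 4 genes were lower, beside 3.71% of all tested genes, and 2 were higher, beside 3.8%. Since most of the 36 genes were deeply read, the background among the 11263 tested genes with at least 100 reads is also given. It was 8.3% lower and 9.22% higher at 1.5-fold, and 1.98% lower and 2.63% higher at 2-fold. The shares of all tested genes are also the background for each count by group or list below. The median log2 fold change of the 36 genes was -0.14, against -0.01 for all tested genes, with 23 values below 0 and 13 above. Their reads made up 0.796% (0.792 to 0.801) of the Vector reads and 0.555% (0.552 to 0.559) of those labelled OE-UNC5B. The 10 myeloid markers took 0.506% of the Vector reads and 0.293% of the others, a difference carried by LYZ, while 7 of the 10 had values above 0. The part of LYZ and MPO in the values of the set was not tested. In bulk RNA, fewer cells of a type and less RNA per cell cannot be told apart.

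**Figure D1:**
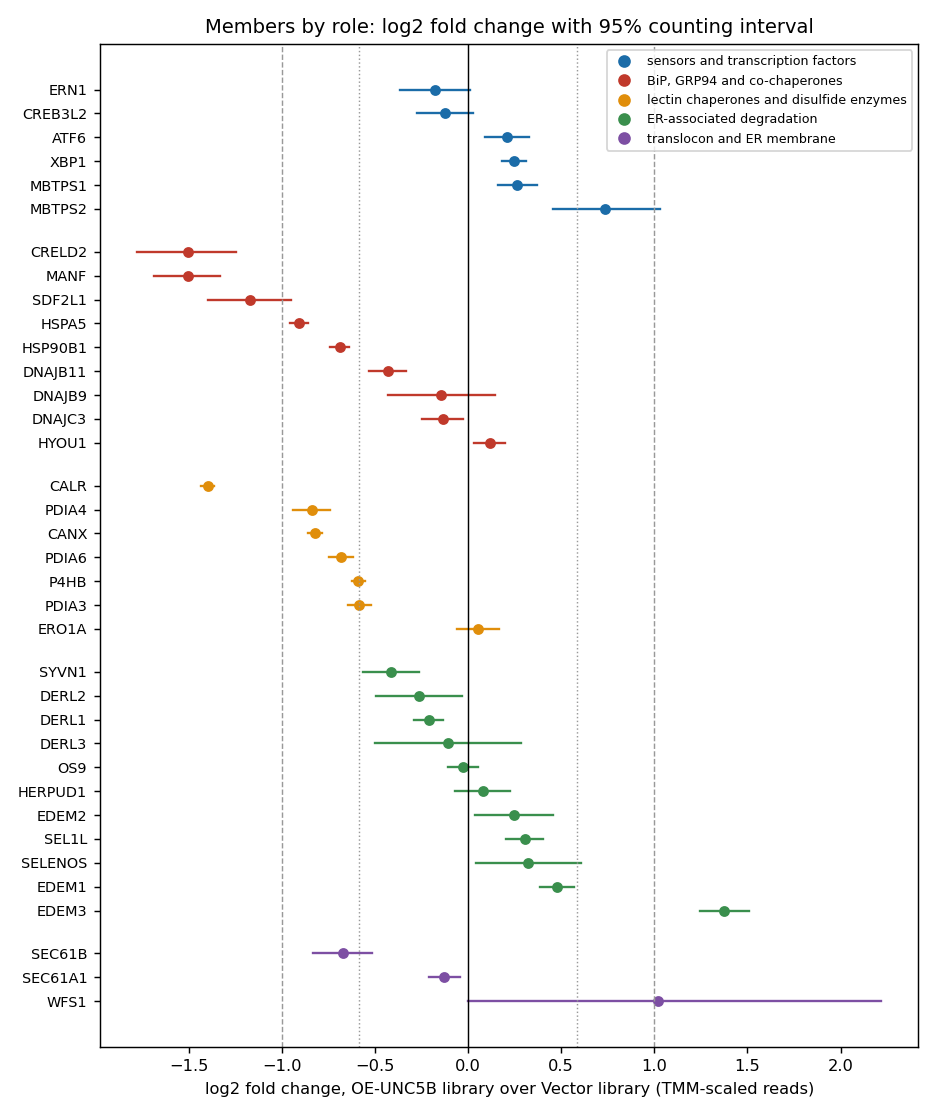
Log2 fold change (x axis, library labelled OE-UNC5B over Vector) of each of the 36 genes, sorted within 5 groups by role. Points are values from 1 library per group, bars are 95% counting intervals, dotted and dashed lines mark 1.5-fold and 2-fold. The chaperone and disulfide enzyme groups lie mostly left of 0, down to -1.50 for CRELD2 and MANF, and EDEM3 stands at 1.37.

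The 6 sensors, transcription factors and ATF6 proteases had a median log2 fold change of 0.23. Of these, 1 was at least 1.5-fold higher and 0 lower, beside 9.14% and 8.73% of all tested genes. With the trend on length and GC content described below subtracted, the median was 0.11. ATF6, the sensor of the chaperone arm, had 1031 reads in the Vector library against 1404 in the one labelled OE-UNC5B, a log2 fold change of 0.21 (0.09 to 0.33), which was -0.01 with that trend subtracted. ERN1, which encodes IRE1, had 455 and 474 reads, with a value of -0.18 whose interval (-0.37 to 0.01) held 0. XBP1 had 3435 and 4802 reads, with a log2 fold change of 0.25 (0.18 to 0.31). These 3 differences were each smaller than 1.5-fold. CREB3L2, an ER-anchored factor of the OASIS family, had 695 and 751 reads and a value of -0.12 (-0.28 to 0.03). MBTPS1, the gene of S1P, had 1282 and 1815 reads and a value of 0.26 (0.16 to 0.37). MBTPS2, the gene of S2P (X chromosome, 21839636 to 21885424), had 153 and 301 reads, and at 0.74 (0.45 to 1.03) was the only one of the 6 past 1.5-fold. Of the exonic bases of MBTPS2, 12.2% are shared with YY2 on the same strand, which had 18 and 22 reads. With these added, the value was 0.68.

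The group of BiP, GRP94 and their partners held the lowest single values of the set, those of CRELD2 and MANF. Of its 9 genes, 5 were at least 1.5-fold lower, 3 of them at least 2-fold, and 0 were higher, with a median log2 fold change of -0.69. HSPA5, the gene of BiP, which binds unfolded chains and holds the stress sensors inactive, lies on chromosome 9 from 125234853 to 125241330. It had 9319 reads in the Vector library against 5848 in the other, a log2 fold change of -0.91 (-0.96 to -0.86). HSP90B1, the gene of the ER HSP90 protein GRP94 (chromosome 12, 103930107 to 103953645), had 7638 and 5579 reads and a value of -0.69 (-0.74 to -0.64). Both major chaperones thus had fewer reads in the deeper library.

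The largest differences of the group were in 3 small lumenal proteins. MANF, an ER-resident trophic factor that binds BiP (chromosome 3, 51385047 to 51389397), had 887 and 368 reads, a log2 fold change of -1.50 (-1.68 to -1.33). CRELD2, a lumenal protein with disulfide isomerase activity (chromosome 22, 49918167 to 49927540), had 403 and 167 reads and a value of -1.50 (-1.78 to -1.24). SDF2L1, a partner of the BiP co-chaperone ERdj3 (chromosome 22, 21642261 to 21644298), had 480 and 251 reads and a value of -1.17 (-1.40 to -0.95), which was -0.93, short of 2-fold, with the trend on length and GC content described below subtracted. These proteins are known as strong targets of ER stress in many cell types. CRELD2 shares 3.25% of its exonic bases with ALG12 on the opposite strand, which had 308 and 276 reads. Use of strand in the counting is not given in the sources used here, and with the reads of both genes added the value was -0.92.

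The co-chaperones of BiP did not all follow it. DNAJB11, which encodes ERdj3, had 1781 and 1556 reads, a log2 fold change of -0.43 (-0.53 to -0.33). DNAJC3, the gene of the co-chaperone P58IPK, had 1329 and 1425 reads and a value of -0.14 (-0.24 to -0.03). DNAJB9, which encodes ERdj4, a repressor of IRE1, had 197 and 210 reads, and its value of -0.14 (-0.43 to 0.14) could not be told from 0 at this depth. HYOU1, the nucleotide exchange factor GRP170 of BiP, had 2068 and 2640 reads and was the only gene of the group with a value above 0, at 0.12 (0.03 to 0.20).

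Calreticulin, calnexin and the disulfide enzymes took the most reads of any group. Their 7 genes held 0.467% (0.463 to 0.471) of the Vector reads and 0.266% (0.264 to 0.269) of those labelled OE-UNC5B. Of the 7, 5 were at least 1.5-fold lower and 0 higher, with a median log2 fold change of -0.68. CALR, the gene of calreticulin, a lectin chaperone that retains glycoproteins until they fold (chromosome 19, 12938578 to 12944489), had 20310 and 9084 reads. Its log2 fold change of -1.40 (-1.43 to -1.36) was a 2.63-fold lower level, and its share of the reads of the 36 genes was 18.6% in Vector and 10.5% in the other library. CANX, the gene of its membrane-bound relative calnexin (chromosome 5, 179678628 to 179730925), had 15284 and 10190 reads and a value of -0.82 (-0.86 to -0.79).

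The disulfide isomerases were lower by less than calreticulin. PDIA4, the gene of ERp72, had 2132 and 1404 reads, a log2 fold change of -0.84 (-0.94 to -0.74). PDIA6, the gene of the isomerase P5, had 4664 and 3427 reads and a value of -0.68 (-0.75 to -0.62). P4HB, which encodes protein disulfide isomerase itself, had 15868 and 12425 reads and a value of -0.59 (-0.62 to -0.56), just past 1.5-fold. Under most of the alternative settings described below, P4HB fell short of 1.5-fold. PDIA3, the gene of ERp57, which works with both lectin chaperones, had 4632 and 3643 reads and a value of -0.58 (-0.65 to -0.52), just short of 1.5-fold. The pseudogene PDIA3P1 had 1002 and 768 reads, and with these added the value was -0.59, so the split of reads between the copies decides the side of the threshold. ERO1A, the oxidase that recharges the isomerases, had 1172 and 1431 reads and a value of 0.05 (-0.06 to 0.16). PDIA6 shares 25.2% of its exonic bases with ATP6V1C2 on the opposite strand, which had 233 and 289 reads, and with these added the value was -0.63.

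Part of the promoters of these genes carries the ER stress response element (ERSE), to which NF-Y and cleaved ATF6 are known to bind. The motif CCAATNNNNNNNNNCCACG was searched on both strands of the RefSeq promoter windows of GRCh38.p14, which run from 250 bases before to 50 after the start of transcription. Only exact matches were counted, so variants of the element are missed. The motif was found in 27 of 35116 windows (0.0769%), those of 25 of 27305 genes. PDIA3, DERL1 and DERL3 had no window there. Of the 33 genes of the set with one, 7 carried the motif (CALR, CANX, CRELD2, HSP90B1, HSPA5, PDIA6 and XBP1). The sequences are shown since 6 of these 7 genes were at least 1.5-fold lower. Each is written 5′ to 3′ on the strand of its gene, with the 2 half-sites in capitals and 5 bases on each side. Where the element lies on the opposite strand, the capitals read CGTGG and ATTGG.
CALR: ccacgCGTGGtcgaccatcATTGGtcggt
CRELD2: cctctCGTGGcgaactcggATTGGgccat
HSPA5: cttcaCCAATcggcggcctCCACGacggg
CANX: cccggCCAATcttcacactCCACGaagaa
HSP90B1, distal: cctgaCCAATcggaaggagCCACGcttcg
HSP90B1, proximal: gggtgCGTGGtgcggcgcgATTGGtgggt
PDIA6: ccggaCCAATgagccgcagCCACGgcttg
XBP1: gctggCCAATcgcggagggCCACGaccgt
The positions are chr19:12938379-12938407 (plus strand) for CALR, chr22:49918549-49918577 (plus) for CRELD2, chr9:125241386-125241414 (minus) for HSPA5 and chr5:179698773-179698801 (plus) for CANX. They are chr12:103930211-103930239 and chr12:103930316-103930344 (plus) for HSP90B1, chr2:10812848-10812876 (minus) for PDIA6 and chr22:28800598-28800626 (minus) for XBP1.

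The context of the element in CALR, the gene of the set with the most reads in Vector, is shown next. It runs from 250 to 32 bases before the start of CALR (chr19:12938359-12938577, plus strand), with the half-sites in capitals.
CALR, upstream: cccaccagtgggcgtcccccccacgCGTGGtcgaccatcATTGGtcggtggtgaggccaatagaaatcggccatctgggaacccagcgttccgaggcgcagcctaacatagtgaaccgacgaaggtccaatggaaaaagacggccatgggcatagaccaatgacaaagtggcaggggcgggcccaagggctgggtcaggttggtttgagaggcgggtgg
Besides the half-site within the element, CALR held 3 further CCAAT boxes in this stretch.

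A shorter form, ERSE-II (ATTGGNCCACG), was found in 19 of the 35116 windows (0.0541%), those of 19 of 27305 genes. In the set it was carried by SDF2L1, HERPUD1 and HYOU1, the last with 2 copies. These are shown in the same way, since 1 of the 3 genes was at least 2-fold lower and the others were within 1.5-fold.
SDF2L1: ggaagCGTGGaCCAATcaaaa
HERPUD1: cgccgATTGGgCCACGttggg
HYOU1, distal: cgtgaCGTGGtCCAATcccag
HYOU1, proximal: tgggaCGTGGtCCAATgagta
They lie at chr22:21642109-21642129 (plus strand), chr16:56932020-56932040 (plus), chr11:119057375-119057395 (minus) and chr11:119057269-119057289 (minus). SDF2L1 had a log2 fold change of -1.17, HERPUD1 of 0.08 and HYOU1 of 0.12.

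The 7 genes with an ERSE had a median log2 fold change of -0.82, with 6 at least 1.5-fold lower. The 26 genes of the set without an exact match, among them SDF2L1, HERPUD1 and HYOU1 with an ERSE-II, had a median of -0.08, with 5 at least 1.5-fold lower. All of the 7 but CRELD2 had a mean level of at least 100 on the scale used below. At such levels values below 0 were more common among all tested genes. The parts of motif and level in this difference were not tested. Outside the set, 17 tested genes held an ERSE or ERSE-II, with a median of -0.21. It was -0.02 for the 9 of them with an ERSE and -0.44 for the 8 with an ERSE-II. Of the 17, 2 were at least 1.5-fold lower (CAMTA1 and ZNF17), beside 8.73% of all tested genes. The only value past 1.5-fold in the other direction, 0.68 for SYNPO, had an interval that held 0. Also among the 17, SERP1, a stabiliser of membrane proteins in the ER, had 2618 and 4034 reads and a value of 0.39. ALG12, the mannosyltransferase gene next to CRELD2, had a value of -0.39. Since both strands were searched, neighbouring genes can share an element and be counted apart, which was not examined. These genes outside the set were named after their values were seen. The element of XBP1 stands beside a value above 0, so the motif alone did not divide the set. The components of ERSE are common. CCAAT was found in the windows of 39.7% of all genes and of 26 of the 33 genes, CCACG in those of 42.1% and of 24. The XBP1-binding motif TGACGTGG was in the windows of 0.927% of genes and in the set in that of HYOU1 alone. The C/EBP-ATF composite TGATGNAA, a motif of ATF4 targets, was in the windows of 4.46% of genes and in those of CREB3L2 and HERPUD1. CCAAT and CCACG lie within ERSE and ERSE-II, and CCACG also within the reverse of TGACGTGG, so these matches overlap.

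**Figure D2:**
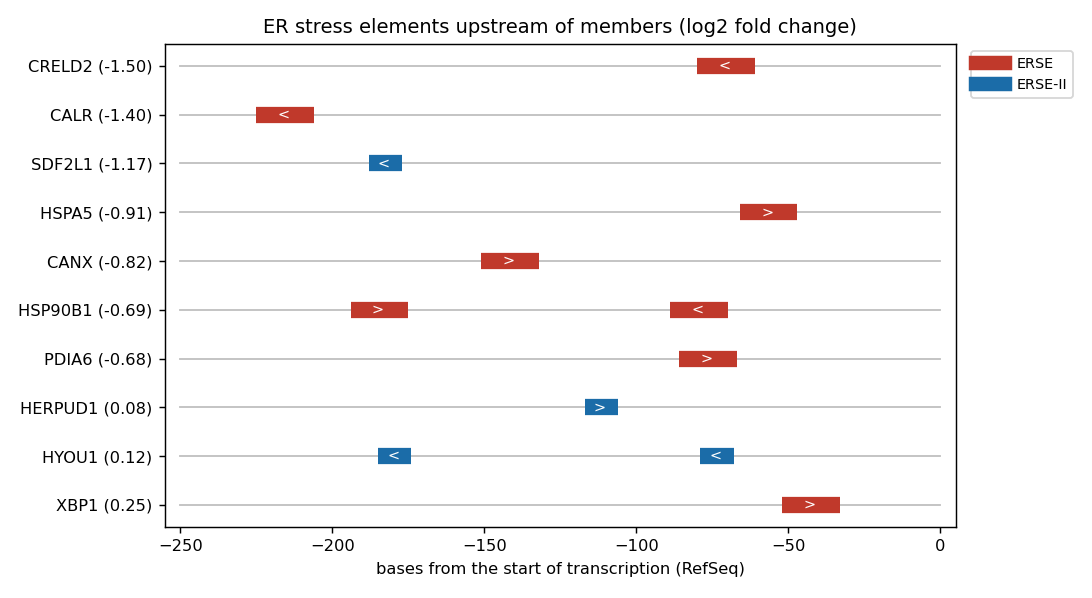
Position of ERSE (red) and ERSE-II (blue) in the 250 bases before the RefSeq start of transcription of 10 genes, sorted by the log2 fold change given in brackets. Arrowheads give the strand of the element relative to the gene. All genes with an ERSE except XBP1 have values of -0.68 or lower.

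ER-associated degradation (ERAD), the retrieval of misfolded proteins to the cytosolic proteasome, was not lower as a group. Of its 11 genes, 1 was at least 1.5-fold higher, beside 9.14% of all tested genes, and 0 were lower, beside 8.73%. These counts are near those shares, and the median log2 fold change was 0.08. EDEM3, a mannosidase that trims glycans of proteins bound for degradation (chromosome 1, 184690231 to 184754913), had 628 and 1918 reads. Its log2 fold change of 1.37 (1.24 to 1.51), a 2.59-fold higher level, was the largest of the 36 genes in this direction. Its relative EDEM1 had 1578 and 2591 reads and a value of 0.48 (0.39 to 0.57). EDEM2 had 326 and 456 reads and a value of 0.25 (0.04 to 0.46). All 3 EDEM genes thus had values above 0, and the intervals of EDEM1 and EDEM3 did not overlap.

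In the SEL1L-HRD1 ligase complex all genes were within 1.5-fold. SEL1L, its adaptor, had 1388 and 2019 reads, a log2 fold change of 0.30 (0.20 to 0.40), or 0.06 with the trend on length and GC content subtracted. SYVN1, the gene of the ligase HRD1, had 771 and 682 reads and a value of -0.41 (-0.56 to -0.26). OS9, the lectin that hands glycoproteins to the complex, had 2330 and 2691 reads and a value of -0.03 (-0.11 to 0.05). HERPUD1, which links the complex to derlins and is itself induced by ER stress, had 682 and 849 reads and a value of 0.08 (-0.07 to 0.23). SELENOS, which recruits the p97 ATPase, had 178 and 262 reads and a value of 0.32 (0.04 to 0.60).

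The derlins, membrane proteins of the same channel, were all within 1.5-fold. DERL1 had 2675 and 2725 reads, a log2 fold change of -0.21 (-0.29 to -0.13). DERL2 had 319 and 313 reads and a value of -0.26 (-0.49 to -0.03). It overlaps MIS12 on the opposite strand by 4.72% of its exonic bases, and MIS12 had 198 and 501 reads, so with these added the value was 0.42. DERL3 had 107 and 117 reads and a value of -0.11 (-0.50 to 0.28). SMARCB1 on the opposite strand, with 961 and 1246 reads, covers 77.0% of the exonic bases of DERL3. Without a statement on strand, the reads of DERL3 cannot be told apart from those of SMARCB1. For DERL2 this holds only for reads in the shared 4.72% of its exonic bases, so the sum with all MIS12 reads is an extreme case.

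The 3 remaining genes had no common direction. SEC61A1, the pore of the translocon through which new chains enter the ER, had 2238 and 2415 reads, a log2 fold change of -0.13 (-0.21 to -0.04). SEC61B, its small beta subunit (chromosome 9, 99222064 to 99230615), had 762 and 563 reads and a value of -0.67 (-0.83 to -0.51). With the trend on length and GC content subtracted, SEC61B was at -0.54, short of 1.5-fold. WFS1, the gene of the ER membrane protein wolframin, had 11 and 27 reads, the fewest of the set. Its value of 1.02 had an interval from 0.000505 to 2.22, so its count as 2-fold higher depends on a handful of reads.

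Compared per kilobase of the canonical transcript and scaled to 1000000 counted reads, CALR was the most abundant of the 36 in Vector, at 779 (768 to 790), followed by P4HB at 475 (467 to 482). CANX at 227, HSP90B1 at 200.2, HSPA5 at 173, PDIA6 at 149 and XBP1 at 140 came next, and the intervals of these 7 genes did not overlap. In the library labelled OE-UNC5B, P4HB at 326 (320 to 332) stood above CALR at 306 (299 to 312). XBP1 at 171 (167 to 176) moved from rank 7 to rank 3. CANX at 133 (130 to 135) and HSP90B1 at 128 (125 to 132) had overlapping intervals there, as did PDIA6 at 96.2 and HSPA5 at 95.4. CRELD2 fell furthest in the order, from rank 19 to rank 29, and MANF moved from rank 11 to rank 18.

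**Figure D3:**
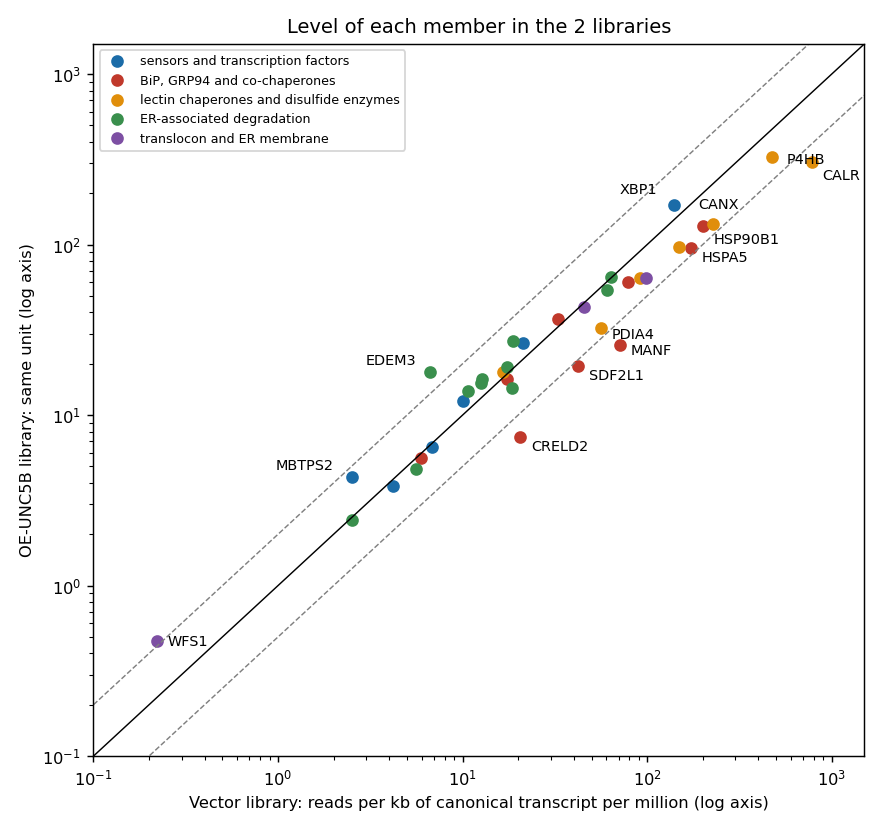
Level of each gene in Vector (x axis) and in the library labelled OE-UNC5B (y axis), in reads per kilobase of canonical transcript scaled to 1000000 counted reads, on log axes. The solid line marks equal levels and the dashed lines 2-fold. CALR lies below the lower dashed line and XBP1 above the solid line.

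The lower genes were mostly the abundant ones. Of the 7 genes with a mean level of at least 100 on that scale, 6 were at least 1.5-fold lower, with a median log2 fold change of -0.69. Among all 685 tested genes at such levels, 15.5% were at least 1.5-fold lower and the median was -0.23. Of the 12 genes between 20 and 100, 4 were lower with a median of -0.32, against 8.37% and a median of -0.08 for 3093 tested genes. Of the 17 genes below 20, 1 was lower (CRELD2) and 3 were higher, with a median of 0.05. Among the 11420 tested genes at such levels, 8.48% were lower and 10.5% higher, and the median was 0.03. Values below 0 were thus more common among abundant genes as a whole, and the part of level in the values of the set was not tested.

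Transcript length also moved with the fold change over all tested genes. Their median was -0.13 for canonical transcripts of up to 1877 bases, -0.04 for those up to 3838 bases and 0.13 for longer ones. In the same length classes the set had medians of -0.67 (7 genes), -0.21 (15 genes) and 0.08 (14 genes). With the trend on GC content and length of all tested genes subtracted, these were -0.54, -0.23 and -0.07. The values of CALR, MANF and CRELD2 were then -1.28, -1.39 and -1.33. HSPA5 (-0.94) and CANX (-0.97), whose transcripts are long, were lower still. SDF2L1 at -0.93 no longer reached 2-fold, P4HB at -0.46 and SEC61B at -0.54 no longer reached 1.5-fold, PDIA3 at -0.62 did, and ATF6 was at -0.01.

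**Figure D4:**
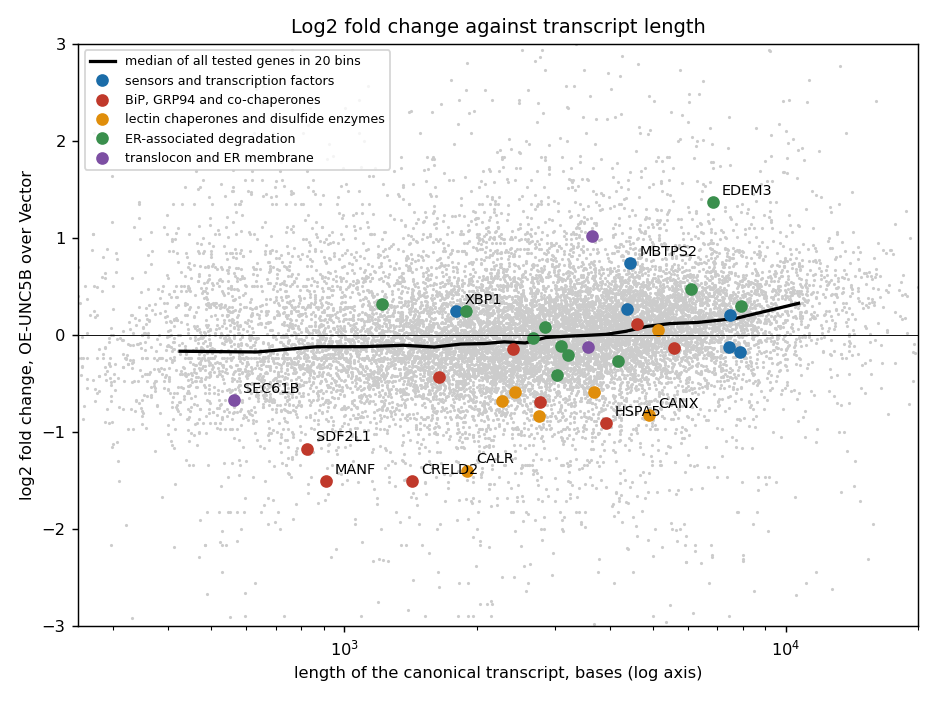
Log2 fold change (y axis) against the length of the canonical transcript in bases (x axis, log scale). Grey points are all tested genes within 3 log2 units, the black line is their median in 20 bins and coloured points are the 36 genes by role. The line rises with length, and CALR, MANF, CRELD2, SDF2L1, HSPA5 and CANX lie well below it.

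By arm, genes usually assigned to ATF6 and genes usually assigned to spliced XBP1 had different medians. Of 12 genes assigned mainly to ATF6, 8 were at least 1.5-fold lower, 4 of them at least 2-fold, and 0 were higher, with a median log2 fold change of -0.76. The 4 others were DNAJB11 (-0.43), HYOU1 (0.12), HERPUD1 (0.08) and SEL1L (0.30). Their reads made up 0.377% (0.374 to 0.381) of the Vector reads and 0.212% (0.210 to 0.215) of those labelled OE-UNC5B. Of 10 genes assigned mainly to spliced XBP1 (DNAJB9, DNAJC3, EDEM1, SEC61A1, SEC61B, SYVN1, DERL1, DERL2, SELENOS and PDIA3), 1 was at least 1.5-fold lower (SEC61B) and 0 were higher, with a median of -0.18. After subtraction of the trend on GC content and length, the medians were -0.75 and -0.27. In the second list, PDIA3 (-0.62) was then at least 1.5-fold lower and SEC61B (-0.54) was not. Many of these genes respond to both factors, so the assignment is approximate, and the difference between the lists was not tested. These lists, and that of the PERK and ATF4 arm below, were drawn up with earlier results of these data known.

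The PERK and ATF4 arm, which is not part of the set, had mostly values above 0. Of its 19 genes, 17 had values above 0, 12 were at least 1.5-fold higher, 9 of them at least 2-fold, and 0 were lower, with a median log2 fold change of 0.85. Their reads made up 0.141% (0.139 to 0.143) of the Vector reads and 0.285% (0.282 to 0.288) of those labelled OE-UNC5B. STC2, a secreted glycoprotein gene, had 213 and 1852 reads, a log2 fold change of 2.88 (2.68 to 3.10). DDIT4, an inhibitor of mTORC1, had 481 and 3507 reads and a value of 2.63 (2.49 to 2.77). ASNS, asparagine synthetase, had 766 and 3400 reads and a value of 1.91, with 49.3% of its exonic bases shared with a lncRNA on the same strand. CHAC1, a glutathione-degrading enzyme, had 36 and 139 reads and a value of 1.70. SESN2, a sensor of leucine, had 404 and 1451 reads and a value of 1.61.

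Within this arm, the genes at its head were looked at after their values were seen. EIF2AK3, which encodes PERK, had 274 and 254 reads, a log2 fold change of -0.35 (-0.60 to -0.09). ATF4 had 4993 and 10509 reads and a value of 0.84 (0.79 to 0.89). DDIT3, the gene of CHOP, had 82 and 164 reads and a value of 0.76 (0.37 to 1.16).

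Of 171 other ER genes listed for comparison, 160 were tested, and their lists differed among themselves. Over all of them, 7 were at least 1.5-fold higher and 9 lower, with a median log2 fold change of -0.04. Both are smaller shares than the 9.14% and 8.73% of all tested genes, beside which the counts of the single lists also stand. Their reads were 1.518% (1.512 to 1.525) of the Vector reads and 1.517% (1.511 to 1.523) of those labelled OE-UNC5B. TMBIM6, an ER membrane protein gene with 2880 and 9747 reads, holds these shares level, and without it they were 1.497% (1.491 to 1.504) and 1.454% (1.448 to 1.460), a comparison made after its values were seen. Of 22 further disulfide and prolyl isomerases, 4 were at least 1.5-fold lower and 0 higher, with 14 values below 0, 8 above and a median of -0.20. Among the 4, FKBP10 had 11 and 0 reads and was named after its values were seen. PRDX4, the ER peroxiredoxin, had 1141 and 589 reads and a value of -1.19. Of 26 genes of the translocon, signal peptidase and TRAP complex, 2 were lower and 0 higher, with 18 values below 0 and a median of -0.21. Of 11 oligosaccharyltransferase genes, 1 was higher and 1 lower, with 9 values below 0 and a median of -0.25. The lower one was DAD1, with 1448 and 848 reads and a value of -1.01. Of 23 further chaperones and glucosyltransferases, 1 was higher and 1 lower, and of 32 further ERAD genes also 1 and 1, with medians of -0.06 and 0.06.

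**Figure D5:**
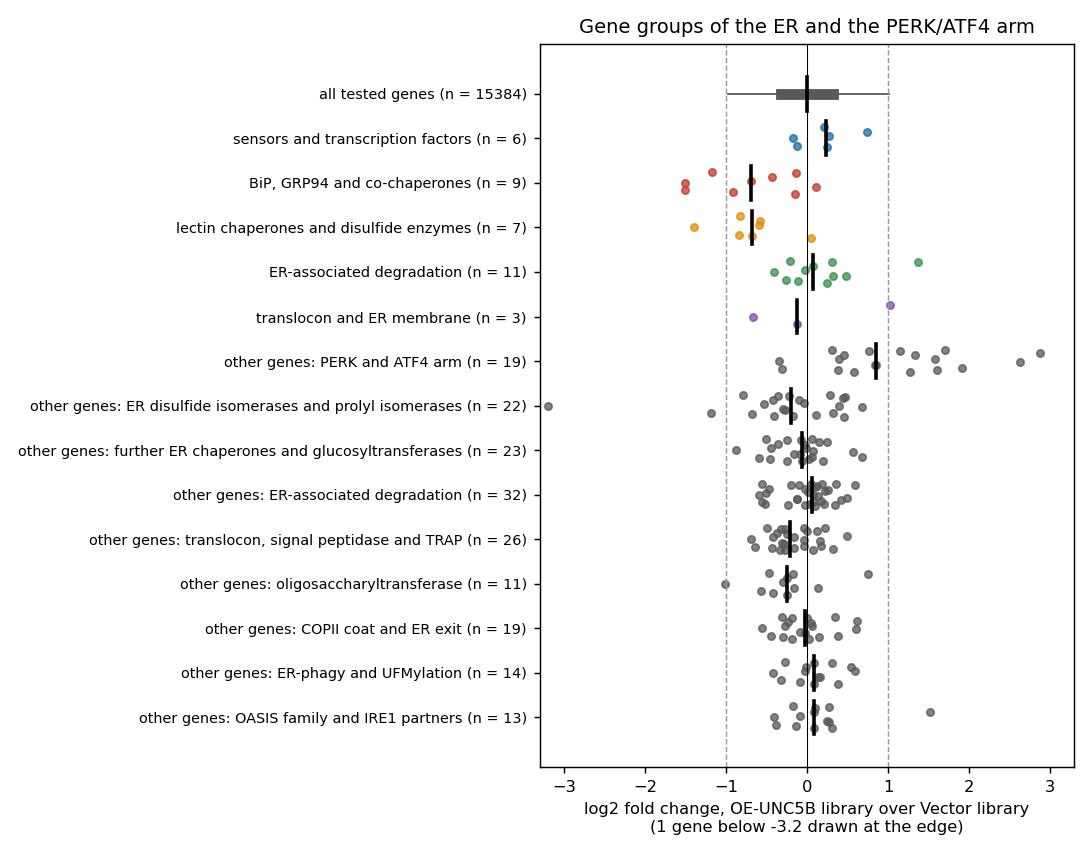
Log2 fold change (x axis) of the 5 role groups of the set (coloured) and of 9 lists of other genes (grey), 1 point per gene, with black lines at the medians. For all 15384 tested genes the thick bar spans the percentiles 25 to 75 and the thin line 5 to 95. Both chaperone and disulfide enzyme groups have medians of -0.69 and -0.68, the PERK and ATF4 arm has 0.85 and the other 8 lists have medians from -0.25 to 0.09.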

How the data were processed

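Total RNA of MOLM-13, with 1 sample labelled Vector and 1 labelled OE-UNC5B, was made into libraries with the VAHTS Universal V6 kit and sequenced on an Illumina HiSeq platform. The submitters' processing notes name bcl2fastq 2.19, HISAT2 2.0.4 and StringTie 1.3.0 and the build GRCh38, with no role or order. How reads were counted, on which annotation and with or without strand, is not given in the sources used here. The authors deposited loci and counts of reads per gene that were not normalized. The authors also deposited FPKM values, whose implied gene lengths exceed the locus for 1112 of 11314 genes with over 50 reads in the library labelled OE-UNC5B, 3 of the 36 among them. Levels between genes were therefore computed from reads and the canonical transcript of GENCODE 44.

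TMM factors from edgeR 4.0.16 in R 4.3.3 (0.984 and 1.02) scaled the counts of the genes whose reads in both libraries summed to at least 10. Intervals came from scipy 1.17.1. No column of per-sample values was left out and no table held comparisons by the authors. The procedure was tested on simulated data. The GC content and length trend is a lowess fit (span 0.3) over the 15198 tested genes (98.8%) with both.

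Every member is reported, with values in full for those past 1.5-fold and for the sensors. From the other lists the rule names genes past 2-fold with at least 50 reads, at most 5 per direction. The members and lists were chosen with earlier results of these data known. As alternatives, counts were scaled to library totals or by DESeq2 1.42.0, 2 reads were added, FPKM of at least 1 were used with 0.1 or 1 added, the filter was dropped or set to 50 reads, and the trend was subtracted.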

Additional observations from a re-analysis of the deposited data

How the results depend on the processing

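With 1 library per group, neither the spread between cultures nor the effect of leaving out a library could be measured. No paired analysis was possible because each group is a single library. The number of genes at least 1.5-fold lower was 10 or 11 under all alternatives, with P4HB, at the threshold, the gene lost under library totals, DESeq2 size factors, both FPKM settings and the minimum of 50 reads. It was also 10 after subtraction of the trend on GC content and length, where P4HB and SEC61B left and PDIA3 entered. The number at least 2-fold lower was 4, and 3 with the trend subtracted, where SDF2L1 had -0.93. The number at least 2-fold higher was 2, and 1 with 2 reads added, with FPKM and 0.1 or 1 added, without a filter and with at least 50 reads, all from the loss of WFS1. The number at least 1.5-fold higher was 3, fell to 2 without WFS1 under FPKM with 0.1 added, no filter and at least 50 reads, and to 1 with FPKM and 1 added, where MBTPS2 was also lost. The median log2 fold change of the set was -0.14, -0.26 with the trend subtracted, -0.11 with FPKM and 0.1 added and -0.09 with library totals or FPKM and 1 added. With the trend subtracted, the value of 13 genes left its own counting interval and ATF6 (0.21 to -0.01), ERO1A (0.05 to -0.13) and OS9 (-0.03 to 0.06) changed sign. OS9 also did so with library totals and FPKM. Library totals moved all values by 0.05 on the log2 scale and the share of tested genes at least 1.5-fold higher and lower to 10.5% and 7.50%. FPKM with 0.1 added gave nearly the values of library totals, as for CALR at -1.35 under both, so these settings largely repeat each other. The median counting interval of the 36 genes reached 0.11 on each side.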

Other observations

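Outside the folding machinery, the exit and turnover of the ER were also looked at by list. The counts stand beside 9.14% of all tested genes at least 1.5-fold higher and 8.73% lower. Of 19 tested genes of the COPII coat and ER exit, 2 were at least 1.5-fold higher and 0 lower, with a median log2 fold change of -0.02. These were MIA2, an organiser of exit sites for large cargo, with 467 and 844 reads, and SEC31B, a coat subunit, with 716 and 1280 reads. Of 14 tested genes of ER-phagy and UFMylation, a ubiquitin-like modification of ER-bound ribosomes, 1 was higher and 0 lower, with a median of 0.09. It was UFL1, the UFM1 ligase, with 862 and 1529 reads. Genes chosen after their values were seen are MIA2, SEC31B and UFL1.

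Among 13 tested relatives of CREB3L2 and partners of IRE1, 1 was higher and 0 lower, with a median of 0.09. TMBIM6, also called BAX inhibitor 1, an ER membrane protein known to bind and restrain IRE1, had 2880 and 9747 reads, a log2 fold change of 1.52 (1.46 to 1.58). It stood apart from the rest of its list, whose other genes were all within 1.5-fold.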
